A study of Mus musculus with 2 samples.

Results

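The integrated stress response was compared between superficial zone cells of articular cartilage (SFZ cells) and costal chondrocytes (CC) through 37 genes that carry it: eIF2 kinases, the transcription factors ATF4 and CHOP and their partners, enzymes and transporters of amino acids, and regulators that feed back on the pathway. The genes were chosen by their known place in the response, with the signals of these same arrays already seen, so the SFZ/CC ratios below are a description and no support for the choice. Probe sets were taken where the annotation names one of these genes alone. That gave 81 probe sets for 35 genes, of 45037 probe sets and 18193 named genes in all. *Eif2s1*, encoding the alpha subunit of eIF2, and *Pycr1*, an enzyme of proline synthesis, had no such probe set, so their signals were not analysed here.

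Both cell types came from ICR mice at postnatal day 4, with no allele or treatment named, and both were grown in DMEM with 10% FBS. SFZ cells came from the femoral and tibial joint surface, whereas CC were released from ribs by collagenase, so zone, body position and isolation cannot be told apart in the comparison. Labelled cRNA from 100 ng of total RNA was hybridised to 1 Affymetrix mouse genome array per cell type. No source used here says how many animals were pooled. With 1 array each there is no replicate check, so every difference is given as a pair of signals and their ratio, without a test or p-value.

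The response works as a relay. In stressed cells eIF2 kinases phosphorylate eIF2, and translation of most mRNAs slows while that of *Atf4* is favoured through upstream reading frames in its mRNA. ATF4 then switches on *Ddit3*, which encodes CHOP, together with genes that make and import amino acids, and *Ppp1r15a*, whose product restores eIF2 by dephosphorylation. Chondrocytes secrete large amounts of collagen and proteoglycan, and in mice ATF4 is needed for normal growth plate cartilage. The arrays measure mRNA and tell nothing of phosphorylated eIF2 or of ATF4 protein.

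ATF4, paired with a C/EBP factor, is known to act through a C/EBP-ATF response element whose core can be written TGATGNAA. This core was searched on both strands of the RefSeq promoters of GRCm38.p6, each from 250 bases before to 50 after a gene start, with matches allowed to overlap. Of 33 genes of the response in that table, 10 held at least 1 match, or 30.3%. Among all 27025 genes of the table the share was 4.51%, and among the 7378 of them with an array signal over 100 it was 2.62%. With C at the open position the core reads TGATGCAA, and TTGCATCA on the other strand. This form was found in 7 of the 33 genes, or 21.2%, against 1.03% of all genes in the table. The list holds many known targets of ATF4, so these shares describe the list and were not tested. A match is a run of letters and not a measured binding site. The windows below show the matches with 8 bases on either side, since they are what these promoters share. They are read 5′ to 3′ on the strand of the gene, and capitals mark the match.
*Atf3*, chr1:191183428-191183451, minus strand: tctcgcacTTGCATCAccaagtcc
*Fgf21*, chr7:45615614-45615637, minus strand: cccccccaTTGCATCAtccgtcca
*Nupr1*, chr7:126625565-126625588, minus strand: gggccagaTTGCATCAgacagggc
*Chac1*, chr2:119351041-119351064, plus strand: ccctgccgTTGCATCActcctgcc
*Vldlr*, chr19:27216812-27216835, plus strand: agcaatagTTGCATCAgcgctcct
*Slc7a11*, chr3:50443664-50443687, minus strand: catgtggcTGATGCAAacctggag
*Slc7a11*, chr3:50443645-50443668, minus strand: tggagaatTTGCATCAtcatgcag
*Pycr1*, chr11:120643836-120643859, minus strand: cctgtgtaTGATGCAAtgcacaag
*Asns*, chr6:7693217-7693240, minus strand: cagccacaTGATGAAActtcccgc
*Pck2*, chr14:55540155-55540178, plus strand: cttcaaagTTACATCAgtatctta
*Trib3*, chr2:152344031-152344054, minus strand: gctcaggtTTACATCAgccgggcg

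The matches of *Atf3* and *Nupr1* began 110 bases before the gene start, that of *Fgf21* 139, that of *Chac1* 193 and that of *Vldlr* 200, on one of the 2 promoters listed for *Vldlr*. *Slc7a11* had a pair in opposite orientation, 66 and 47 bases before the start. The match of *Trib3* lay 14 bases after the start, in transcribed sequence. Promoters of *Ddit3*, *Atf4*, *Ppp1r15a*, *Psat1* and the others, 23 genes in all, held no match, which says only that these letters were not in the window. *Eif4ebp1*, *Cth*, *Slc7a5* and *Slc7a3* were not in the table. A second element, the endoplasmic reticulum stress element, written as CCAAT, 9 bases of any kind and CCACG, was found in none of the 33 genes and in 0.137% of all genes.

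Signals are MAS5 intensities on a linear scale, used as the authors deposited them. A background level was set on each array as the 95th percentile of 86 probe sets of odorant, vomeronasal and taste receptor genes, at 28.2 for SFZ cells and 26.0 for CC. A gene was counted as higher in one cell type where its signal there was over 100 and over 2 times that in the other, with its brightest probe set standing for it. The median gene was somewhat lower in SFZ cells: the 8986 genes with a signal over 100 had a median log2 ratio, SFZ cells over CC, of -0.20. Dividing each array by its median moved that value to -0.01 and quantile normalization to 0.02. For *Actb*, control probe sets at the 3′ end read 1.35 times those at the 5′ end in SFZ cells and 1.24 times in CC. All 8 chondrocyte markers were above background on both arrays, 3 of them higher in SFZ cells, with summed signals of 60527 and 44236 and *Col9a1* at 11711 in SFZ cells against 11816 in CC. Of 6 superficial zone markers *Prg4* was higher in SFZ cells, *Vcam1* and *Thbs4* were higher in CC, and *Cilp* was under background on both arrays. Of the marker lists, skeletal muscle set the arrays apart most: 8 of 8 were higher in CC, with summed signals of 224.6 and 24403. Of the 5 adipocyte markers named on the array 4 were higher in CC, with sums of 1014 and 10977, as were 4 of 6 fibroblast markers, with sums of 6914 and 15876, and 3 of 6 leukocyte markers, with sums of 420.8 and 1887. None of 5 endothelial markers passed, with sums of 62.51 and 155.8. The part of these other cells in the ratios below was not tested. In bulk RNA, fewer cells that express a gene and less RNA of it in each cell cannot be told apart.

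*Ddit3* and some genes known to be induced with it stood higher in SFZ cells. *Atf4* itself lay close to equal on its brightest probe set, at a ratio of 1.07, and at 1.45 on a second one. None of 7 enzymes of amino acid synthesis passed in either direction, a count too small to tell from the shares of all genes below. By the thresholds, 5 of 35 genes were higher in SFZ cells, namely *Atf3*, *Fgf21*, *Ddit3*, *Ppp1r15a* and *Nupr1*, and none was higher in CC. Among all genes with a signal over 100, 2.38% passed in SFZ cells and 11.0% in CC. After either scaling *Slc3a2*, *Stc2*, *Chac1* and *Slc7a3* passed as well, which made 9 genes, and none passed in CC. On probe sets, 7 of the 72 with a signal over 100 passed in SFZ cells and none in CC, against 2.24% and 10.3% of all probe sets over that signal. The nearest gene above the ratio of 2 was *Nupr1* at 2.36 and the nearest below it was *Slc3a2* at 1.89. At a ratio over 1.5, 12 of the 35 genes were higher in SFZ cells, where 5.86% of all genes were. The median log2 ratio of the 35 genes was 0.37, or 0.57 above that of all genes over the minimum, and 30 of them had a ratio over 1, where 31.0% of all genes did. After quantile normalization the median was 0.53, and 31 genes had a ratio over 1, where 52.3% of all genes did. The genes were chosen with this contrast in view, and nothing is read from these counts about the response as a whole.

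**Figure D1:**
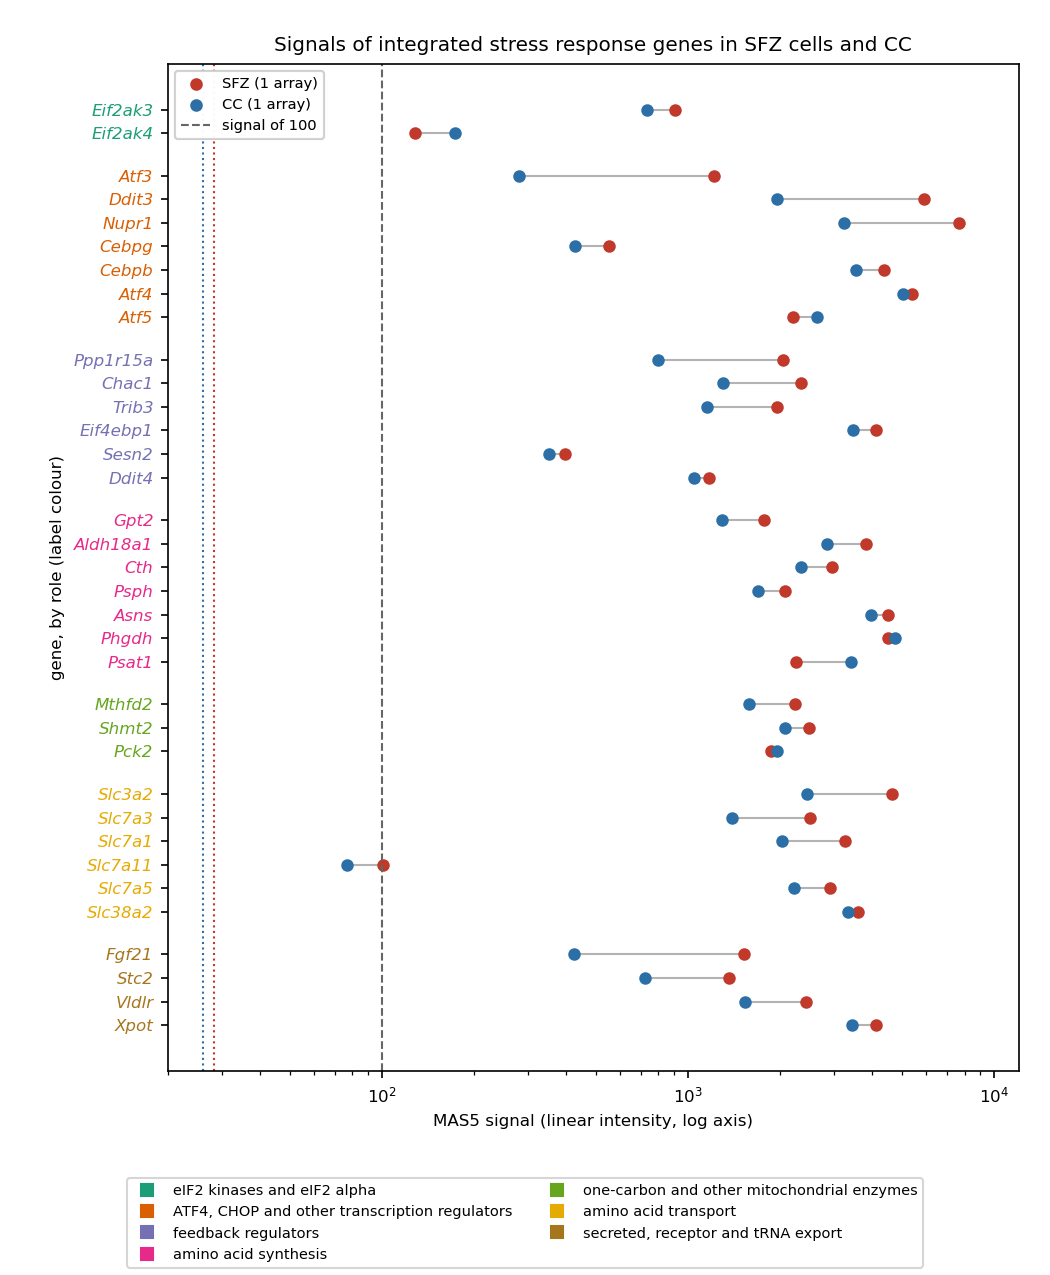
MAS5 signals of the 35 genes on a log axis, 1 SFZ array (red) and 1 CC array (blue), on the brightest probe set of each gene, ordered by role and then by ratio. Dotted lines stand at each array's background (28.2 and 26.0), and the dashed line stands at 100. The widest gaps are those of *Atf3* and *Fgf21*, and *Atf4*, *Phgdh* and *Pck2* lie close together.

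At the head of the relay, the kinase genes lay on opposite sides of a ratio of 1. *Eif2ak3*, encoding the kinase PERK that senses unfolded protein in the endoplasmic reticulum, read 905 in SFZ cells against 733 in CC, a ratio of 1.23. *Eif2ak4*, encoding the kinase GCN2 that senses uncharged tRNA, was at 128 and 173, a ratio of 0.743, above that of 29.9% of these genes. It stayed below 1 after either scaling. Neither kinase gene passed the thresholds. The other probe sets of both genes were under background on both arrays.

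On its brightest probe set *Atf4* was among the genes of the list that differed least. Its signal there was 5395 in SFZ cells against 5019 in CC, a ratio of 1.07. A second probe set, nearly as bright, read 4759 and 3276, a ratio of 1.45, so the size of the difference is not settled. *Ddit3*, by contrast, read 5888 in SFZ cells against 1950 in CC, a ratio of 3.02, and at 149 and 66.0 on its second probe set, a ratio of 2.26. So both probe sets of *Ddit3* passed the thresholds and none of *Atf4* did. The ratio of *Ddit3* was above that of 99.1% of all genes with a signal over 100, and the ratio of *Atf4* above that of 76.4%. *Atf3*, a stress-induced factor that ATF4 and CHOP act upon, was at 1213 and 280.1, a ratio of 4.33, the highest of the list, on its only probe set. *Nupr1*, a small chromatin-associated stress protein, was at 7658 and 3240.4, a ratio of 2.36, and its second probe set gave 2.57.

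The dimerization partners did not differ by as much. *Cebpb*, whose product pairs with ATF4 and CHOP, read 4378 in SFZ cells against 3543 in CC, a ratio of 1.24. *Cebpg*, encoding another partner of ATF4, was at 550.4 and 426, a ratio of 1.29, but a probe set with signals of 321 and 420 gave 0.765, so its direction is not settled. *Atf5*, a relative of ATF4 that is also favoured in translation under stress, was at 2193 and 2645, a ratio of 0.829, and stayed below 1 after either scaling.

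**Figure D2:**
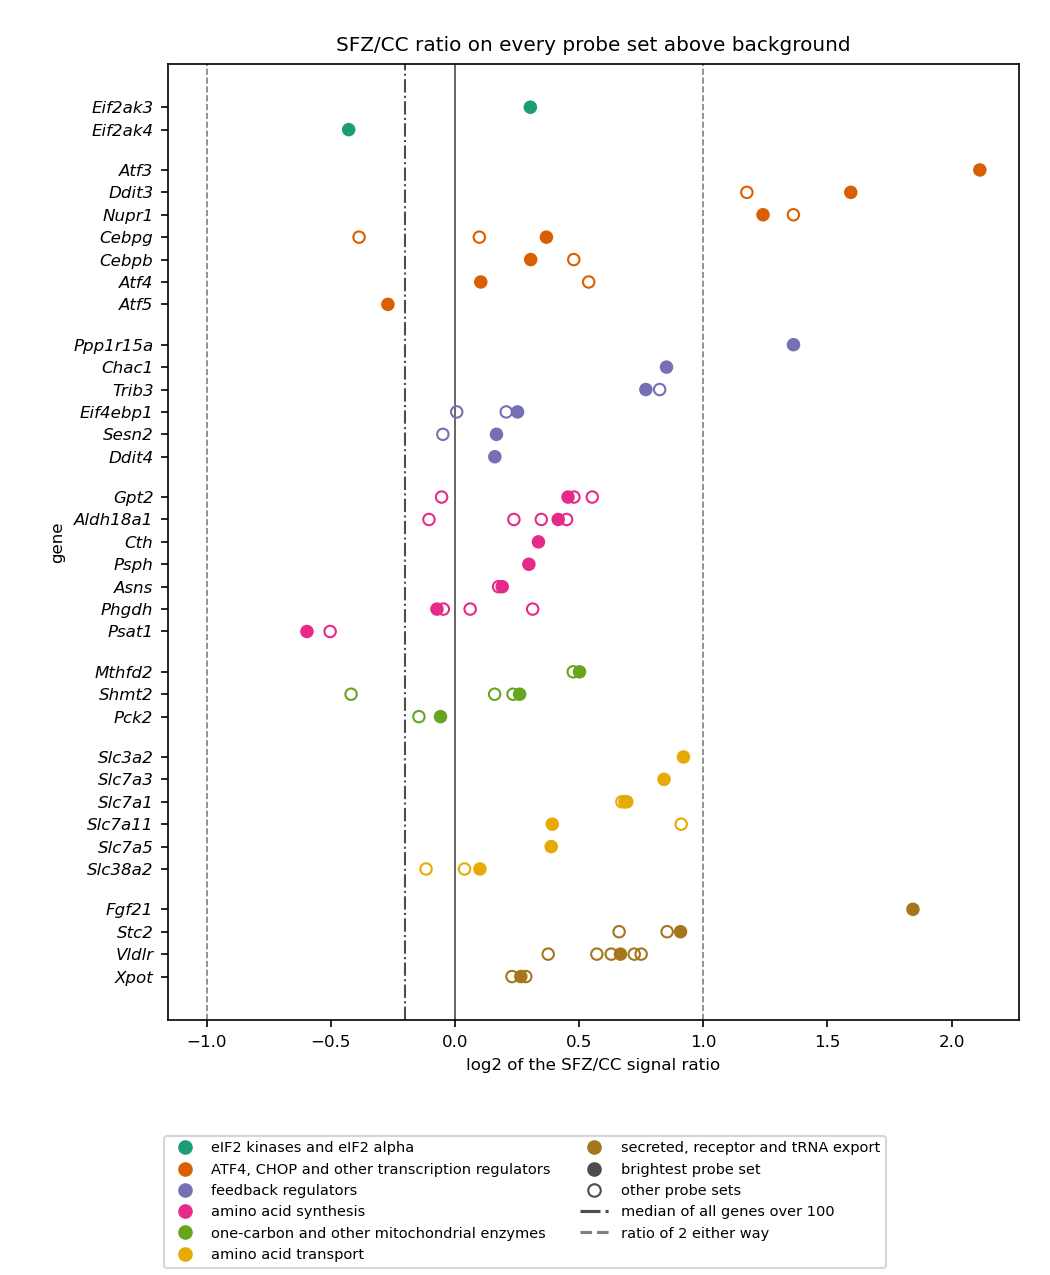
Log2 of the SFZ/CC ratio for the 76 probe sets above background on at least 1 array, by gene and role, with 1 array per cell type. Filled points are the brightest probe sets and open points the others; dashed lines mark a ratio of 2 either way and the dash-dotted line the median of -0.20 over all genes with a signal over 100. *Ddit3* and *Nupr1* lie beyond the ratio of 2 on both their probe sets.

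Among the 6 genes grouped here as feedback regulators, 1 passed in SFZ cells and none in CC, and the ratios ran from 1.12 to 2.57. Of all genes with a signal over 100, 2.38% passed in SFZ cells and 11.0% in CC. The group is broad, and of its genes *Ppp1r15a* and *Trib3* act back on eIF2, ATF4 or CHOP. *Ppp1r15a*, encoding GADD34, which brings protein phosphatase 1 to eIF2, read 2047 in SFZ cells against 796 in CC, a ratio of 2.57, and it was the gene that passed. *Chac1*, an enzyme that breaks down glutathione, was at 2344 and 1299, a ratio of 1.81. *Trib3*, encoding a pseudokinase that restrains ATF4 and CHOP, was at 1957 and 1148, a ratio of 1.70, with 1.77 on its second probe set. These 3 ratios were above those of at least 96.0% of all genes with a signal over 100. *Ddit4* and *Sesn2*, whose products restrain mTORC1, had ratios of 1.12 and 1.12, from signals of 1169 and 1046 and of 395 and 352. *Eif4ebp1*, encoding a repressor of cap-dependent translation, was at 4108 and 3449, a ratio of 1.19. The second probe set of *Sesn2* gave 0.967, and so *Sesn2* was not set apart in either direction.

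Enzymes of amino acid synthesis, the classical metabolic targets of ATF4, did not pass in either direction: 0 of 7 passed in SFZ cells and 0 in CC. Among all genes with a signal over 100, 2.38% and 11.0% passed, so this count does not set the enzymes apart. Their median log2 ratio was 0.30, where that of all these genes was -0.20, and 5 of the 7 had a ratio over 1. The ratio of *Psat1* was above that of 20.7% of these genes and that of *Gpt2* above 91.7%. *Asns*, encoding asparagine synthetase, read 4508 in SFZ cells against 3950.1 in CC, a ratio of 1.14, and its second probe set gave 1.13. The serine pathway ran both ways along its consecutive steps. *Phgdh* was at 4509.6 and 4742, a ratio of 0.951, with 4 probe sets from 0.951 to 1.24, and its ratio lay above 1 after median scaling. *Psat1* was at 2252 and 3404, a ratio of 0.662, the lowest of the list, with 0.706 on its second probe set and values below 1 after either scaling. *Psph*, which completes serine synthesis, was at 2079 and 1691, a ratio of 1.23. *Psat1* was therefore the gene of the list with the largest excess in CC, and at 1.5 as threshold the only one counted there.
The remaining enzymes had ratios between 1.26 and 1.37. *Cth*, which makes cysteine, was at 2953 and 2339, a ratio of 1.26. *Aldh18a1*, the first enzyme of proline synthesis from glutamate, was at 3802 and 2850.0, a ratio of 1.33, with 5 probe sets from 0.930 to 1.37. *Gpt2*, a mitochondrial alanine transaminase, was at 1768 and 1289.7, a ratio of 1.37, with 4 probe sets from 0.963 to 1.47.
The mitochondrial enzymes were likewise close. *Mthfd2*, of the folate cycle, was at 2241 and 1583, a ratio of 1.42. *Shmt2*, which splits serine into glycine and a one-carbon unit, was at 2477 and 2068, a ratio of 1.20, and one of its dimmer probe sets gave 0.748. *Pck2*, encoding mitochondrial phosphoenolpyruvate carboxykinase, was at 1867 and 1944, a ratio of 0.960 that turned to 1.09 after median scaling and 1.08 after quantile normalization.

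All 6 amino acid transporters had ratios over 1 as deposited and after either scaling, and none passed as deposited. *Slc3a2*, encoding the heavy chain that carries several of these transporters to the membrane, read 4625 in SFZ cells against 2444 in CC, a ratio of 1.89. *Slc7a3* and *Slc7a1*, both transporters of cationic amino acids, were at 2492 and 1390.1, a ratio of 1.79, and at 3265 and 2021, a ratio of 1.62. All 3 probe sets of *Slc7a1* lay between 1.59 and 1.62, although their signals in SFZ cells ran from 64.8 to 3265. The light chains that pair with *Slc3a2* were closer to equal than the heavy chain. *Slc7a5*, the carrier of large neutral amino acids, was at 2898 and 2215, a ratio of 1.31. *Slc7a11*, which exchanges glutamate for cystine, was the dimmest gene of the list at 101 and 76.9, a ratio of 1.31, with 1.88 on a second probe set whose CC signal of 26.2 was at the edge of background. *Slc38a2*, a carrier of small neutral amino acids known to respond to amino acid supply, was at 3581 and 3339.7, a ratio of 1.07.

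Of the genes for secreted proteins and receptors, *Fgf21* passed in SFZ cells, as did 2.38% of all genes with a signal over 100. *Fgf21*, encoding a hormone released by stressed liver and muscle, read 1519 in SFZ cells against 423 in CC, a ratio of 3.59 that was above those of 99.4% of all genes with a signal over 100. *Stc2*, encoding the secreted glycoprotein stanniocalcin 2, was at 1356 and 723, a ratio of 1.88, and its 3 probe sets lay between 1.58 and 1.88. *Vldlr*, the receptor of very low density lipoprotein, was at 2426 and 1529, a ratio of 1.59, and its 6 probe sets lay between 1.30 and 1.68. *Xpot*, which exports tRNA from the nucleus, was at 4108 and 3418, a ratio of 1.20, with all 3 of its probe sets above background between 1.17 and 1.22. The probe sets above background of *Stc2*, *Vldlr* and *Xpot* thus kept their direction within each gene, while *Fgf21* had only 1 probe set.

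**Figure D3:**
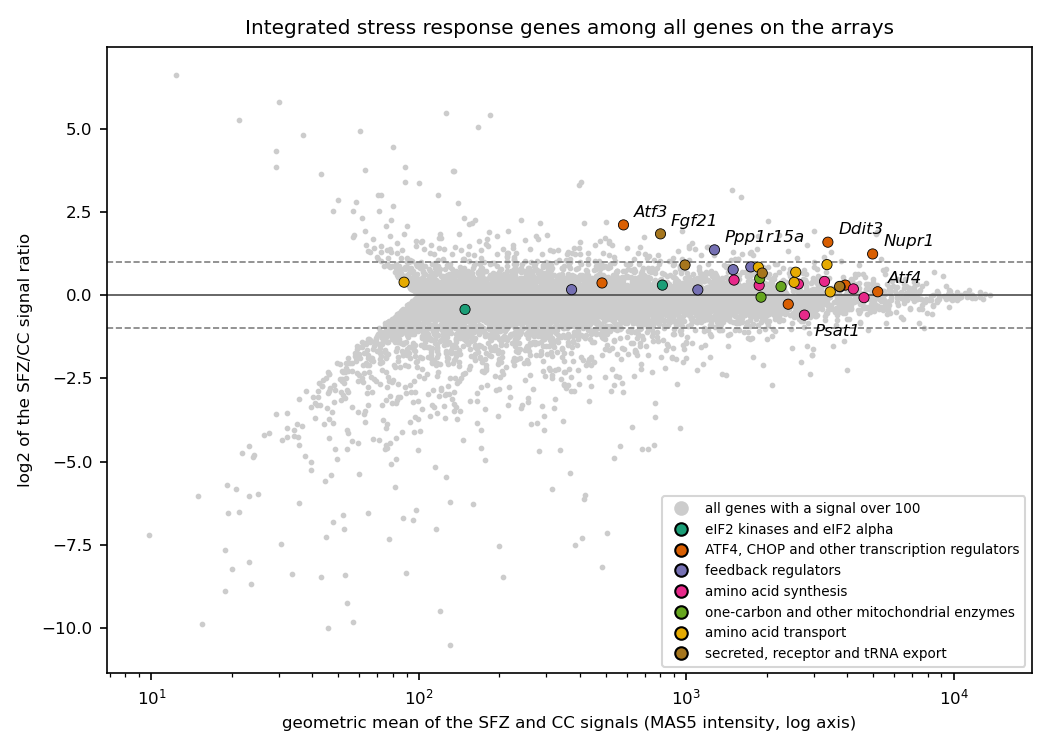
Log2 of the SFZ/CC ratio against the geometric mean of both signals (log axis), for the 8986 genes with a signal over 100 (grey) and the 35 genes of the integrated stress response (coloured by role), 1 array per cell type. Dashed lines mark a ratio of 2 either way; the 5 genes beyond it are *Atf3*, *Fgf21*, *Ddit3*, *Ppp1r15a* and *Nupr1*, and *Psat1* lies lowest at -0.60.

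Probe sets of one gene give the only repeated measure on these arrays. Of 22 genes with several probe sets above background, 15 had all of them on the same side of a ratio of 1 and 7 did not, namely *Cebpg*, *Sesn2*, *Phgdh*, *Aldh18a1*, *Gpt2*, *Shmt2* and *Slc38a2*. Between the highest and the lowest ratio of a gene lay a factor of 1.17 at the median and of 1.69 at most, in *Cebpg*. The 5 genes past the thresholds had ratios from 2.36 to 4.33. The threshold ratio of 2 is itself above that largest factor, so they exceed it by construction and nothing is read from this. *Atf3*, *Fgf21* and *Ppp1r15a* rest on 1 probe set each, and this factor covers neither the spread between animals nor that between arrays. Over all genes with a signal over 100, the ratio was 0.29 at the 5th percentile and 1.57 at the 95th.

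The promoter matches printed above were set beside the ratios. The 9 genes with a match and a probe set had a median log2 ratio of 0.77, with ratios from 0.960 in *Pck2* to 4.33 in *Atf3*. The 22 genes with a promoter in the table, a probe set and no match had a median of 0.30, with ratios from 0.662 in *Psat1* to 3.02 in *Ddit3*. The ranges overlap, and the difference was not tested. Over all genes with a signal over 100 and a promoter in the table, the 193 with a match had a median of -0.08 and the 7185 without one -0.20, a narrower gap, and the genes of the response were chosen with their ratios seen. By form of the core, *Atf3*, *Fgf21* and *Nupr1*, all past the thresholds, held TTGCATCA. So did *Chac1* at a ratio of 1.81, *Vldlr* at 1.59 and *Slc7a11* at 1.31. TTACATCA was found in *Trib3* at 1.70 and in *Pck2* at 0.960, and TGATGAAA in *Asns* at 1.14. The ratios of the forms overlap, and whether they differ by form was not tested.

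**Figure D4:**
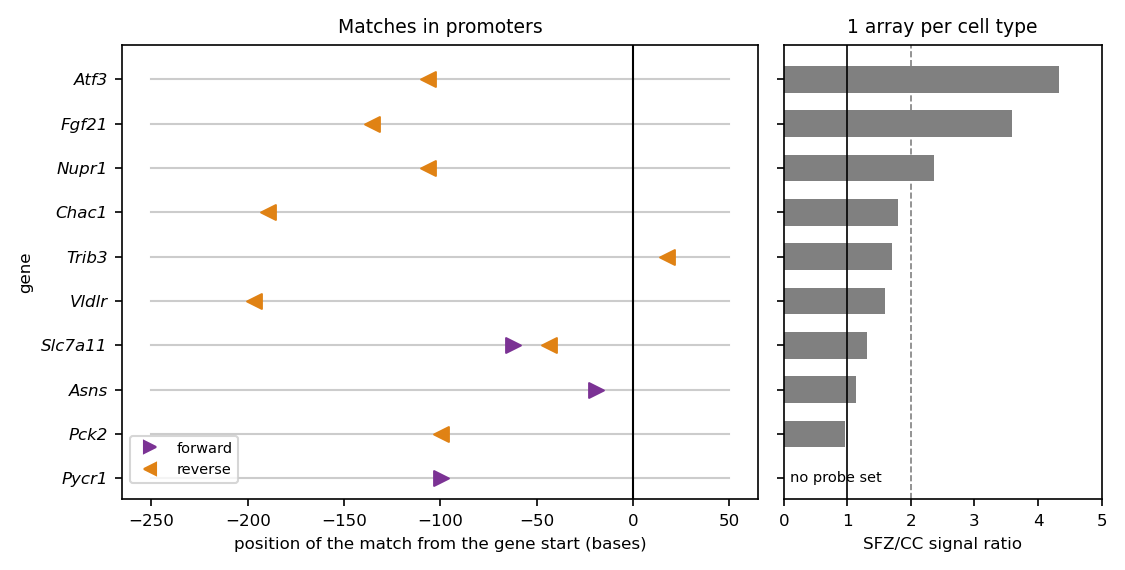
Left, positions of the matches to the response element core, in bases from the gene start, in the 10 genes of the response that hold one; arrowheads give the orientation. Right, the SFZ/CC signal ratio of each gene on 1 array per cell type, with a line at 1 and a dashed line at 2; *Atf3*, *Fgf21* and *Nupr1* lie beyond 2, *Pck2* lies under 1 and *Pycr1* had no probe set.

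Other genes of the pathway, listed by their roles, were read with the same thresholds. By these, 2.38% of all genes over the signal minimum passed in SFZ cells and 11.0% in CC. Among 10 other subunits and kinases around eIF2, none passed in either direction and the median log2 ratio was -0.17. They included *Eif2s2*, at 5653 in SFZ cells against 5469 in CC, and *Eif2ak2*, encoding the RNA-activated kinase PKR, at 81.4 and 133. Of 6 genes around the eIF2 phosphatase, *Dnajc3* alone passed, at 4396 and 939, a ratio of 4.68. Its product, p58IPK, restrains eIF2 kinases and serves as a chaperone in the endoplasmic reticulum. The constitutive partner of the phosphatase, *Ppp1r15b*, was at 1411 and 1140.05, a ratio of 1.24, below the 2.57 of the stress-induced *Ppp1r15a*.

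Aminoacyl-tRNA synthetases, which load tRNA and many of which ATF4 is known to act upon, had ratios on both sides of 1 as deposited. None of 19 cytosolic ones passed, and their median log2 ratio was 0.01. *Wars* had the highest ratio at 1.64, from 929 and 565, and *Qars* the lowest at 0.576, from 863 and 1498. None of 15 mitochondrial ones above background passed, with a median of -0.18.

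Other amino acid transporters had ratios on both sides. By the thresholds, 3 of 14 passed in SFZ cells and 1 in CC. Those in SFZ cells were *Slc38a3*, a glutamine transporter, at 900.4 and 294, *Slc7a2*, a cationic amino acid transporter, at 5480.04 and 2221, and *Slc6a9*, a glycine transporter, at 1221 and 605. *Slc38a4* was higher in CC at 66.0 and 334. The ratio of *Slc6a9*, 2.02, was at the edge of the threshold. Among all genes over the signal minimum, 2.38% passed in SFZ cells and 11.0% in CC, and the counts were not tested against these shares.
Of 9 further enzymes of serine, glycine and one-carbon metabolism, *Aldh1l1* was higher in CC at 33.5 and 159 and none was higher in SFZ cells, with *Aldh1l2* at 2977 and 2705. Of 12 other amino acid enzymes, *Bcat2* was higher in SFZ cells at 134 and 66.3 and *Glul*, encoding glutamine synthetase, was higher in CC at 31.1 and 289.9. *Got1*, a transaminase of the cytosol, was at 1382 and 694, a ratio of 1.99 just under the threshold.

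Cell death genes linked to CHOP had ratios on both sides of 1. Of 9 above background, none was higher in SFZ cells. *Pmaip1* was higher in CC at 129, at least 4.56-fold above an SFZ signal under background. Among all genes over the signal minimum, 2.38% passed in SFZ cells and 11.0% in CC, so these counts do not set the list apart. *Bbc3*, which encodes the BH3-only protein PUMA, was at 191 and 163, *Bcl2l11*, encoding BIM, was at 46.1 and 98.0, and *Ero1a*, an oxidase of the endoplasmic reticulum induced by CHOP, was at 6064 and 3230.4, a ratio of 1.88. None of 15 autophagy genes, 9 genes of the mitochondrial stress response or 14 regulators of mTORC1 passed in either direction, and their median log2 ratios were -0.07, -0.08 and -0.04. *Sqstm1*, encoding the autophagy receptor p62, was at 2720 and 1504, a ratio of 1.81, and *Gabarapl1* was at 653 and 354, a ratio of 1.85.

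The other arms of the unfolded protein response, run by IRE1 and ATF6, also held genes that were higher in SFZ cells. Of 14 genes, *Herpud1*, *Dnajb9*, *Pdia4*, *Edem1* and *Atf6* were higher in SFZ cells and none in CC, with a median log2 ratio of 0.45. Among all genes over the signal minimum, 2.38% passed in SFZ cells and 11.0% in CC, and the counts were not tested against these shares. *Herpud1*, a component of endoplasmic reticulum-associated degradation that ATF4 is also known to act upon, was at 5901 and 1543, a ratio of 3.83. *Hspa5*, encoding the chaperone BiP, was at 11157 and 7411, a ratio of 1.51, and *Xbp1* was at 5790 and 4657, a ratio of 1.24. Signals of *Xbp1* do not separate its spliced from its unspliced mRNA. Of the other C/EBP and ATF factors, 9 in number, *Cebpd* was higher in CC at 660 and 1956, and *Cebpa* at 418, at least 14.8-fold above an SFZ signal under background. Both are factors of adipocyte differentiation, and the adipocyte marker *Fabp4* was at 42.7 and 6039. The part of adipocytes or other cells in the ratios of *Cebpd* and *Cebpa* was not tested. None of 9 housekeeping genes passed, with a median of -0.16.

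**Figure D5:**
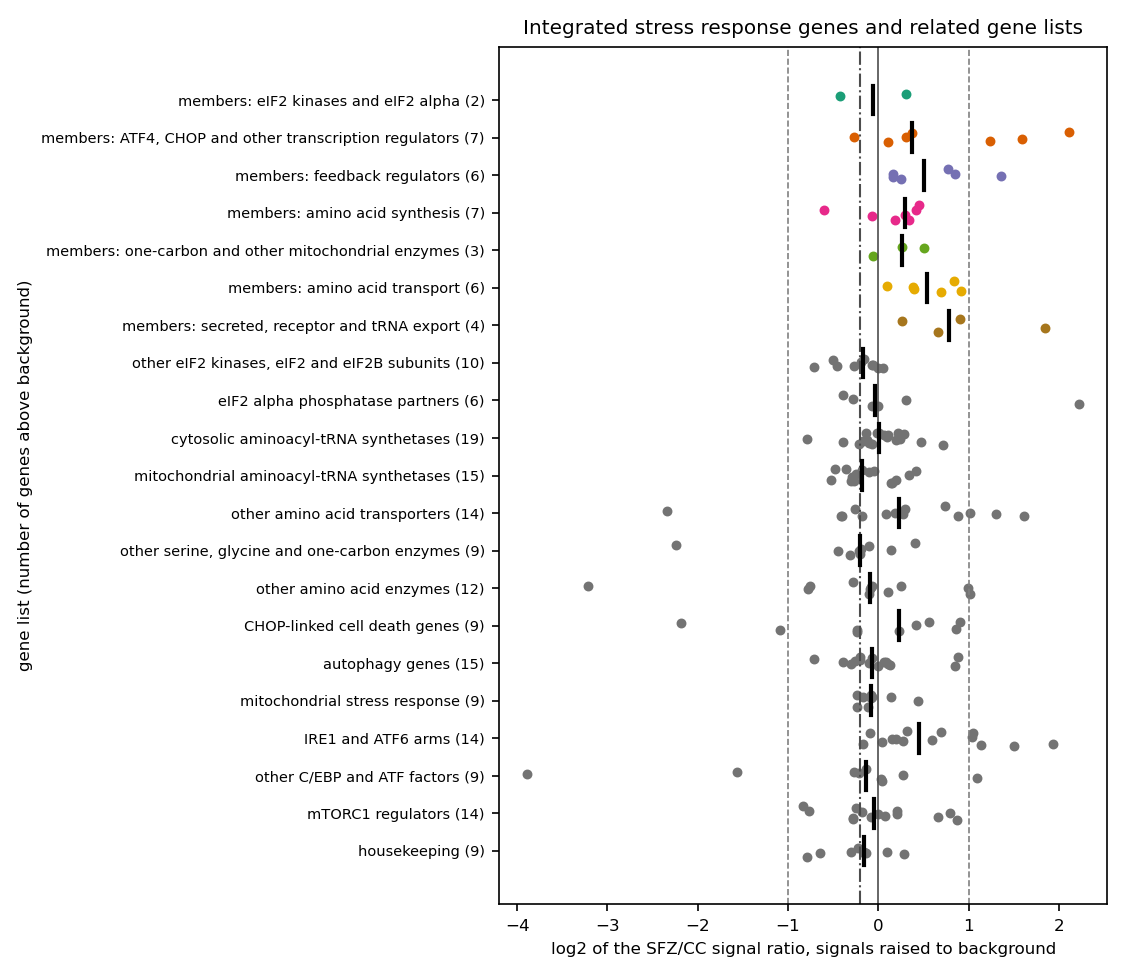
Log2 of the SFZ/CC ratio, with signals raised to background, for the genes of the integrated stress response by role (coloured) and for related gene lists (grey), 1 array per cell type. Points are genes that exceeded background on either array, bars are medians, dashed lines mark a ratio of 2 either way and the dash-dotted line the median of -0.20 over all genes with a signal over 100. The medians were 0.54 for amino acid transport, 0.30 for amino acid synthesis, 0.45 for the IRE1 and ATF6 arms and 0.01 for the cytosolic aminoacyl-tRNA synthetases.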

How the data were processed

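Total RNA of cultured SFZ cells and CC was labelled with a 3′ in vitro transcription kit and hybridised to whole-genome mouse arrays of Affymetrix, 1 for each of the cell types. The values deposited are MAS5 intensities on a linear scale and were used without further scaling. MAS5 is named in the submitters' processing notes. Its version, its target intensity and any present or absent calls were not given in the sources read. The number of arrays limits the precision.

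GEO's platform annotation gave each probe set its gene, and symbols of all 35 genes were checked by Entrez identifier against RefSeq of GRCm38.p6. Control probe sets were left out. Probe sets that share a pseudogene, such as 2 of *Phgdh*, were left out as well. The brightest probe set by mean log2 signal stood for a gene. Members, thresholds and gene lists were chosen with earlier results of these data known. All genes of the response were named, and up to 4 genes of each other list, those past the thresholds or the brightest first. The IRE1 and ATF6 list went past that limit, with 7 genes named, those beyond it after their values were seen. *Eif2ak2*, *Wars*, *Qars*, *Aldh1l2*, *Got1*, *Bbc3*, *Bcl2l11*, *Ero1a*, *Gabarapl1*, *Sqstm1*, *Ppp1r15b*, the cell type markers and the genes of the closing section were singled out after their values were seen. For the lists, both signals were raised to background before the median, and genes above background on neither array were not counted. Counting, scaling and the motif search were tested on simulated data. Alternatives covered scaling, background, thresholds and the choice of probe set. Python 3.11.15, numpy 2.4.6, pandas 2.3.3 and matplotlib 3.10.9 were used.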

Additional observations from a re-analysis of the deposited data

How the results depend on the processing

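Counts within 1.5 times the value as deposited, and medians within 0.1 on the log2 scale, are taken as close. As deposited, 5 genes and 7 probe sets were higher in SFZ cells, none in CC, and the median log2 ratio was 0.37. With signals divided by each array's median these became 9 genes, 13 probe sets and 0.56, and with quantile normalization 9 genes, 14 probe sets and 0.53, and all 5 genes as deposited remained. At a ratio over 1.5 there were 12 genes and 21 probe sets in SFZ cells and 1 gene and 1 probe set in CC, and at a ratio over 3 there were 3 genes and 3 probe sets in SFZ cells, which other thresholds change by construction. Division by the medians of 28.1 and 32.0 adds one constant to every log2 ratio, which carries genes just under the ratio of 2 past it. For quantile normalization the cause was not tested. Close values came from raising signals to background, adding 64, taking the 99th percentile as background, signal minimums of 50 and 200, and other ways to combine the probe sets of a gene. They also came from dropping probe sets whose suffix marks shared or cross-hybridizing probes, which left 29 genes and 4 higher in SFZ cells, without *Nupr1*, since both its probe sets carry such a suffix. Single genes moved by over 0.1 on the log2 scale in 35 of 35 cases under median scaling, by that constant, in 30 under quantile normalization, 7 with the median over probe sets, 4 with 64 added and 2 of 29 without the suffixed probe sets. Ratios of *Phgdh*, *Pck2*, *Cebpg* and *Eif2ak4* crossed 1 under at least 1 alternative. For *Eif2ak4* this came on a probe set under background. No replicate could be left out, with 1 array per cell type. No paired analysis was possible because each cell type had 1 array. Array signal cannot resolve ratios of probe sets near 28.2 and 26.0, as for the dimmer one of *Slc7a11*.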

Other observations

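The response element core TGATGNAA, searched in the same promoters, was also looked at outside the genes of the response, after the values had been seen. Cytosolic aminoacyl-tRNA synthetases held it in 5 of 13 genes in the promoter table, or 38.5%, namely *Aars*, *Gars*, *Iars*, *Tars* and *Yars*, and their SFZ/CC ratios lay between 0.916 in *Yars* and 1.18 in *Gars*. None of the 14 mitochondrial synthetases in the table held it. *Got1*, at 1382 in SFZ cells and 694 in CC, held TTGCATCA 102 bases before its start, *Herpud1*, at 5901 and 1543, held it 112 bases before, and *Slc1a4*, a carrier of neutral amino acids at 674 and 367, held it 4 bases before.

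Of 164 genes higher in SFZ cells that are in the promoter table and outside the list, 7 held the core, or 4.27%, and of 749 genes higher in CC 22 did, or 2.94%. Among the 7 were *Chchd10*, a protein of the mitochondrial intermembrane space, at 2355 in SFZ cells and 949.7 in CC, with matches 85 and 72 bases before its start, and *Dock9*, with a ratio of 2.37 and a match 124 bases before. *Adig*, *Rab39b*, *Slco2a1* and *Tmem154* were the others beside *Herpud1*, with ratios of 3.58, 2.53, 2.07 and 2.32. These shares were not tested.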
